A study of Homo sapiens with 6 samples.

Results

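The contactins and the L1-family proteins are cell adhesion molecules of the immunoglobulin superfamily. The 9 autosomal genes CHL1, CNTN1, CNTN2, CNTN3, CNTN4, CNTN5, CNTN6, NRCAM and NFASC were examined, out of 19111 autosomal protein-coding genes of GENCODE 44 on hg38. They were chosen by their family membership together with the measured position of H3K9me3 domains around CHL1, CNTN6 and CNTN4, so their shares in domains are given as descriptions and were not tested. The domains came from 4 chromatin immunoprecipitation (ChIP-seq) libraries of monolayers of MCF10.DCIS.com, a human breast line that carries oncogenic T24-H-RAS and serves as a model of ductal carcinoma in situ. Control cells had been infected with the empty lentiviral vector pSLIK-neo-EV and RAB5A cells with the inducible vector pSLIK-neo-RAB5A, and both were selected with an antibiotic to give stable lines. The vector responds to doxycycline, and the dose and time of induction are not stated for these libraries. RAB5A is an endosomal GTPase whose expression sets jammed epithelial monolayers in collective motion. Each condition was assayed once with the antibody ab176916 and once with ab8898, so n = 2 libraries per condition and the spread between replicates includes the difference between antibodies. The labels do not say that these libraries came from separate cultures. They name an input library for each condition and none for each antibody. If the domain calls used these inputs, both antibodies of a condition shared the same input, and the inputs differed with condition. The lists hold positions and scores of domains but no reads and no expression, so the depth of each library, the level of RAB5A and the identity of the cells could not be checked in them. They placed domains on 6.80% to 7.01% of the autosomes, in 68 to 71 autosomal domains per library.

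H3K9me3 is the trimethylation of histone H3 at lysine 9, a mark of heterochromatin that is read by HP1 proteins and that covers repeats and stretches of silent genes. Contactins are tethered to the outer membrane by a lipid anchor, whereas L1-family proteins span the membrane and bind the ankyrin and spectrin cytoskeleton with their tails. Both families are known above all from neurons and glia, where they guide axons and hold axon and glial membranes together around the nodes of Ranvier. The domains were called in bins of 200 kb, and the distance between neighbouring possible edges is therefore 200 kb throughout. The share of a gene in domains is the percentage of its annotated span, exons and introns together, that lies inside a called domain.

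CNTN6 and CNTN4 lay wholly inside 1 domain in all 4 libraries, CHL1 touched the same domain with its 3′ end in the control libraries but not in the RAB5A libraries, and the other 6 genes lay outside domains everywhere. The domain was at the short-arm end of chromosome 3, where CHL1, CNTN6 and CNTN4 follow each other on the plus strand. CHL1, CNTN6 and CNTN4 spanned chr3:196763-409417, chr3:1092658-1404217 and chr3:2098813-3057959, and the gaps between them were 683.2 kb and 694.6 kb. Of all autosomal protein-coding genes, 4.32% overlapped a domain in all 4 libraries (825 genes), 4.04% were wholly covered in all 4 (772 genes) and 95.0% overlapped none in any library (18158 genes). Among the members these counts were 2, 2 and 6 of 9, which the choice of members fixed in part. Both antibodies gave the same share for every member within a condition.

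**Figure D1:**
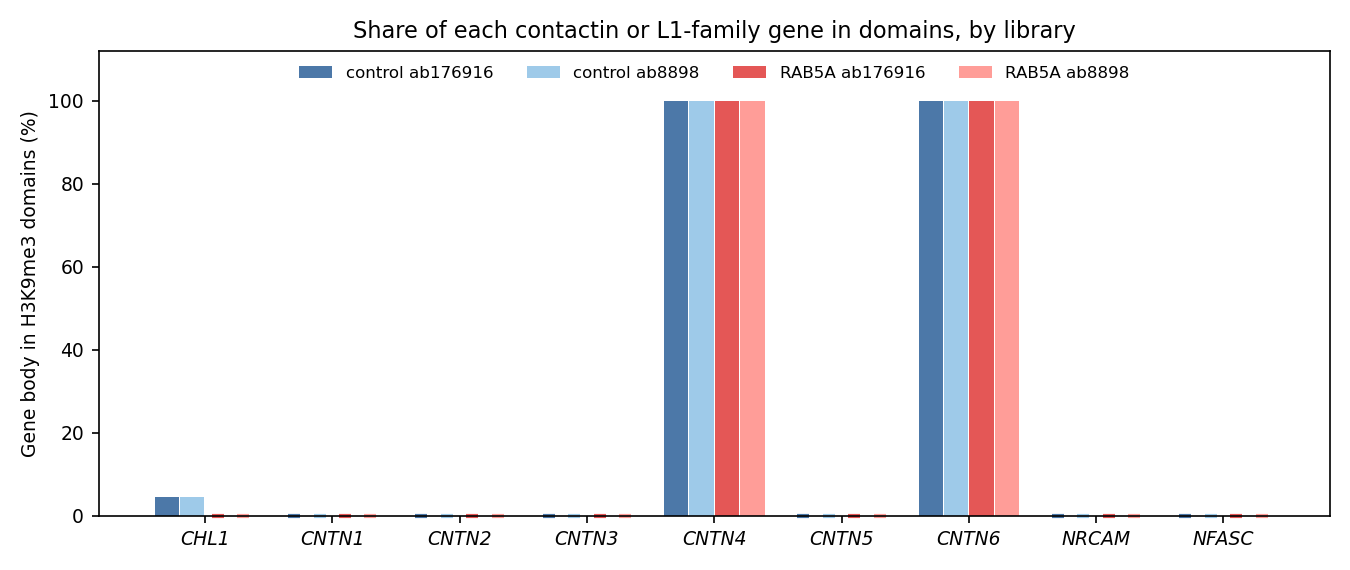
Percentage of the gene body inside H3K9me3 domains (y axis, linear) for the 9 genes, with 1 bar per library and flat ticks on the baseline for values of 0. CNTN4 and CNTN6 stand at 100% in all 4 libraries, and CHL1 at 4.43% in the 2 control libraries and 0 in the 2 RAB5A libraries.

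The promoter sequences of the 3 neighbours are shown because CNTN6 and CNTN4 start inside the domain and CHL1 starts outside it. Each is the stretch of 250 bases before the most upstream annotated start of the gene, read from hg38 on the plus strand, with CG dinucleotides in capitals. CG reads the same on both strands. The windows are chr3:196513-196762 for CHL1, chr3:1092408-1092657 for CNTN6 and chr3:2098563-2098812 for CNTN4.
CHL1: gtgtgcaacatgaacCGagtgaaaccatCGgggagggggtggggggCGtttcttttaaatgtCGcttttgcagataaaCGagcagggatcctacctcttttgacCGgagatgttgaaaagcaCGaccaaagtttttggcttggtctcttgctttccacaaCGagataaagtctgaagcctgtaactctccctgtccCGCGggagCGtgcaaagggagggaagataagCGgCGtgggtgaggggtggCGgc
CNTN6: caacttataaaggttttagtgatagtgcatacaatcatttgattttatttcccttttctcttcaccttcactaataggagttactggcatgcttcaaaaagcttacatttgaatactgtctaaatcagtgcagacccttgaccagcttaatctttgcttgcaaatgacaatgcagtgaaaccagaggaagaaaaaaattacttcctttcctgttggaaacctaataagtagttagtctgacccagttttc
CNTN4: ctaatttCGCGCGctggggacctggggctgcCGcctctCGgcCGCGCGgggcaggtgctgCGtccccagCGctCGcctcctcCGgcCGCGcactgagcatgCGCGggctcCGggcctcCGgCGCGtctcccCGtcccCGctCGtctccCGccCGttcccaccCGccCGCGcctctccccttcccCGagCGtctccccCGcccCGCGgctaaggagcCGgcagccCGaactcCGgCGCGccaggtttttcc

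The CNTN6 window held 0 CG dinucleotides and had a GC content of 35.6%, whereas the CNTN4 window held 38 and had a GC content of 77.2%. Among 19110 autosomal protein-coding genes with a complete window, 96.3% held at least 1 CG and the median was 14. No more CG than in CNTN6 was found in 3.65% of the windows, and no more than in CNTN4 in 97.2%. Both windows were inside the domain in all 4 libraries, so this domain held windows of either kind. The CHL1 window held 14 CG dinucleotides, the same as the median, and lay 203.2 kb from the domain in both control libraries and 403.2 kb from it in both RAB5A libraries. Among the members outside domains the counts ranged from 4 in CNTN2 to 38 in CNTN3. The CHL1 window overlapped the antisense gene CHL1-AS2 and the CNTN4 window the noncoding gene ENSG00000288831. The canonical transcript of CNTN6 starts at chr3:1093024, downstream of the window shown. Those of CNTN4, CNTN2 and NRCAM also start inside the gene, at chr3:2098866, chr1:205043212 and chr7:108456436. The CG counts belong to the windows used, and windows before canonical starts were not examined.

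CHL1 encodes the close homologue of L1, a transmembrane protein that guides neurite growth and neuronal migration. In control cells its share in domains was 4.43% with ab176916 and 4.43% with ab8898. In RAB5A cells it was 0% with ab176916 and 0% with ab8898. The conditions did not overlap, with 4.43% ± 0 in control and 0% ± 0 in RAB5A (SD, n = 2 each), a difference of -4.43 percentage points that was the same with either antibody. The antibodies of a condition may share an input, so they need not be independent repeats. The part of CHL1 behind the difference was small. The control domain began at chr3:400001, which left 9417 bp of the gene, or 4.71% of a bin, inside it. This part held the last 2 of the 28 exons of the canonical transcript, with 287 of 3672 coding bases, 3709 bases of untranslated sequence and 5421 bases of intron. The RAB5A domain began at chr3:600001, 190.6 kb past the end of the gene. The start of CHL1 and most of its body were outside domains in both conditions. The size of the difference depended on the bins, as it was -94.0 percentage points with every domain extended by 1 bin and 0 with every domain shortened by 1 bin.

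Of 19111 autosomal protein-coding genes, the share was lower in both RAB5A than in both control libraries for 5 (0.0262%) and higher for 10 (0.0523%). CHL1 was among the former, as the rule that chose it requires, and no member was among the latter. The other 4, named after their values were seen, were ADARB2, GZMH, GZMB and STXBP6, whose shares in the control libraries were 96.0% to 100%. CHL1 thus had the smallest difference of these 5 genes.

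**Figure D2:**
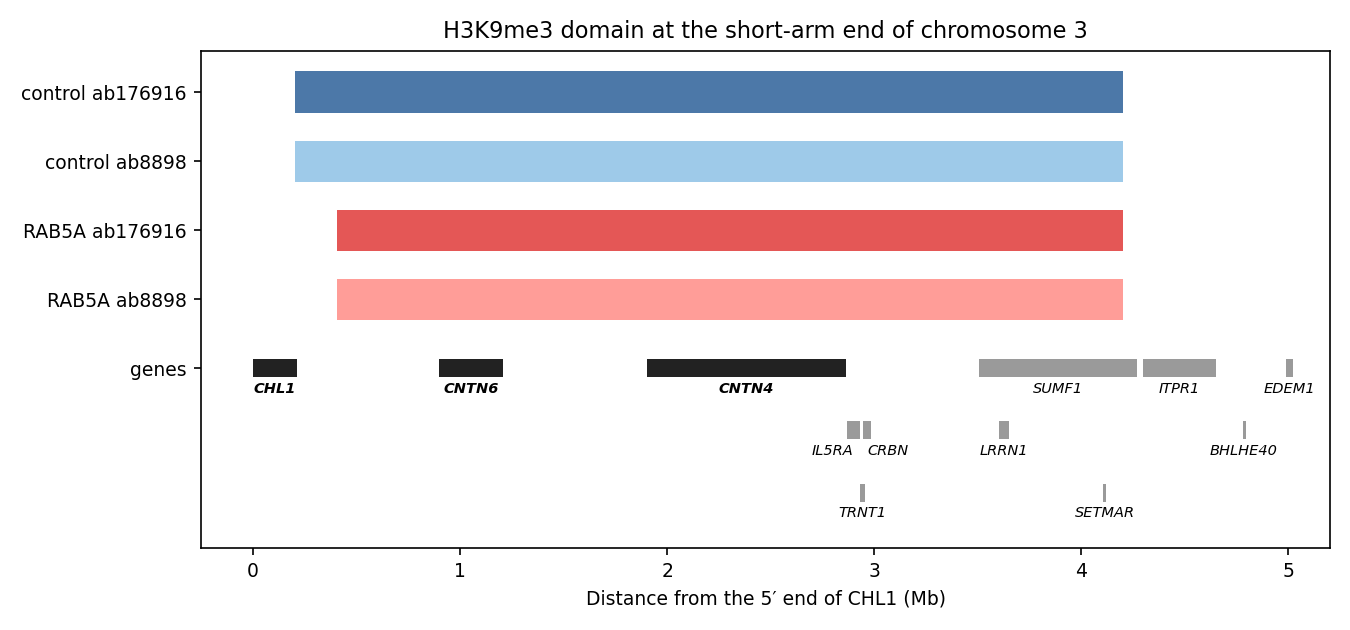
Domains of the 4 libraries (coloured bars) and the protein-coding genes named in the text (members in black, others in grey) at the short-arm end of chromosome 3, by distance from the 5′ end of CHL1 in Mb. The left edge lies 0.2 Mb further from CHL1 in both RAB5A libraries, and the right edge is the same in all 4.

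The left edge of the domain lay at 0.4 Mb in both control libraries and at 0.6 Mb in both RAB5A libraries, and the right edge at 4.4 Mb in all 4. The domain was 4 Mb long in each control library and 3.8 Mb in each RAB5A library, a difference of -0.2 Mb with either antibody and with an SD of 0 in both groups. This is 1 bin, the smallest step that these lists can show, so an SD of 0 says only that replicates shared a bin. For comparison, 60 autosomal domains were present once in every list. Of their 120 edges, 83 were at the same position in all 4 libraries and 2 (1.67%) lay further in with both RAB5A libraries than with both control libraries. These were the left edge here and an edge on chromosome 14. Another 2 edges lay further out by the same comparison. Compared within each antibody, 2 edges lay further in and 3 further out. The bin between the edges, chr3:400001-600000, was 1 of 11 autosomal bins that both control lists held and both RAB5A lists lacked, against 18 the other way round.

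Beside the end of CHL1, this bin held noncoding genes. ENSG00000287505 (chr3:524012-551657) was covered at 100% in both control libraries and at 0% in both RAB5A libraries. LINC01266 (chr3:536062-846561) was covered at 100% in both control libraries and at 79.4% in both RAB5A libraries, with 63.9 kb in the bin. No transcription start of a protein-coding gene lay in it.

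The score of the domain caller has no stated unit and was used only to rank domains within a list. By score from the highest, the chromosome 3 domain ranked 31 of 78 (control ab176916), 31 of 76 (control ab8898), 34 of 79 (RAB5A ab176916) and 33 of 76 (RAB5A ab8898). Among autosomal domains alone these ranks were 25 of 70, 26 of 68, 28 of 71 and 29 of 69. By length it ranked higher, from 13 to 17 among the autosomal domains, whose median length was 2.2 to 2.4 Mb. By score per bin it was among the lower ones, ranking 9, 7, 12 and 10 from the lowest among autosomal domains in the same order of libraries. The ranks differed little between conditions and were not tested.

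CNTN6, which encodes a contactin of the cerebellum and the developing cortex, had 311.6 kb of gene body in the domain in each of the 4 libraries, or 100%. CNTN4, whose product binds the amyloid precursor protein and the receptor phosphatase PTPRG, had 959.1 kb in it in each library, or 100%. Both genes began more than 1 bin inside the RAB5A edge, so that the shift of the edge did not reach them. Together the members made up 1280.1 kb of the control domain (32.0%) and 1270.7 kb of the RAB5A domain (33.4%). They held 61.2% and 61.0% of the bases of the domain that belong to protein-coding genes.

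This domain overlapped 9 protein-coding genes in both control libraries and 8 in both RAB5A libraries, CHL1 being the difference. Beside CNTN6 and CNTN4, IL5RA, TRNT1, CRBN, LRRN1 and SETMAR were covered at 100% in all 4 libraries. They encode a subunit of the interleukin 5 receptor, a tRNA-modifying enzyme, the cereblon substrate receptor of a ubiquitin ligase, a neuronal leucine-rich repeat protein and a histone methyltransferase fused to a transposase. SUMF1, which encodes the enzyme that activates sulfatases, crossed the right edge and was covered at 91.2% in all 4 libraries. ITPR1, the inositol trisphosphate receptor gene, lay 93.3 kb beyond that edge in all 4 libraries. BHLHE40 and EDEM1 lay 579.4 kb and 787.6 kb beyond it. Some of these genes, such as TRNT1 and CRBN, are generally known as genes used by most cells, and others as neural ones. Whether any of them was expressed in these cells is not in the lists.

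By the summed difference of shares over the 4 libraries, the gene most like CHL1 was PTPRM, at 3.95% in the control ab176916 library and 0 in the other 3, with a difference of 4.90 percentage points. ITPR1, BHLHE40 and EDEM1, which are nearby on the chromosome, were at 0 in all 4 libraries and differed by 8.86 points, as did 18160 genes in all. For CNTN6 and CNTN4, 771 genes had the same pattern of 100% in all 4 libraries. By the rule of the nearest start on the chromosome, those named were the other of the pair, IL5RA, TRNT1, CRBN and LRRN1. With values at 0 or 100% for most genes, this likeness separates few of them.

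**Figure D3:**
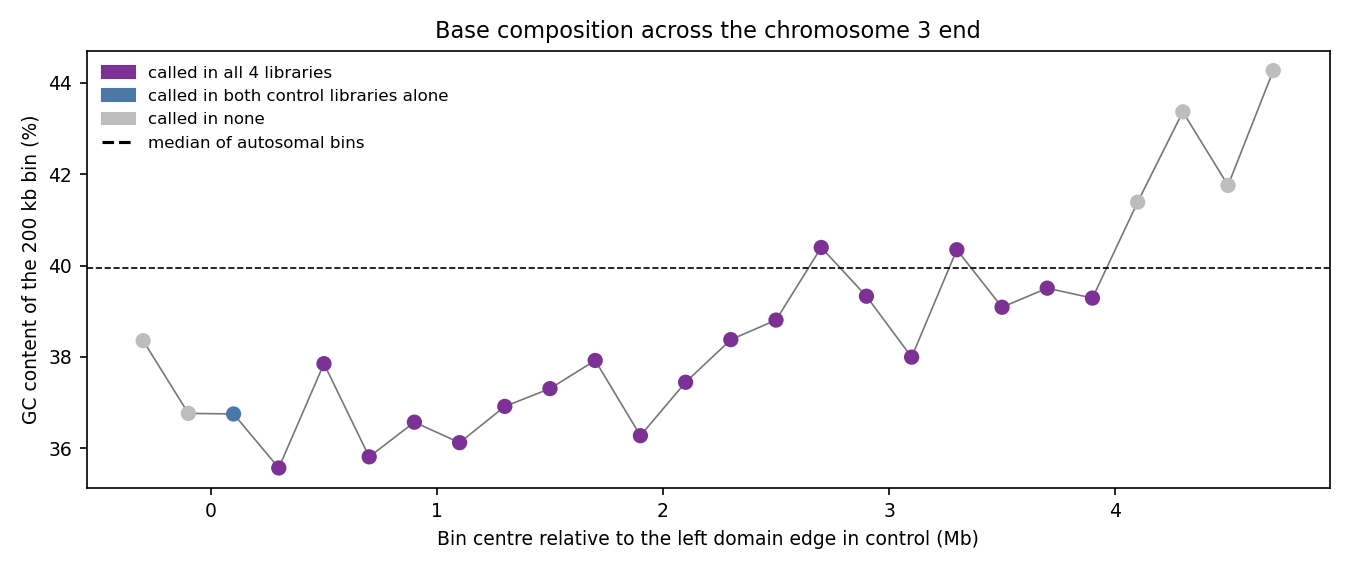
GC content of 200 kb bins (y axis, %) by distance of the bin centre from the left domain edge in control (x axis, Mb), coloured by the libraries that called the bin, with the median of autosomal bins as a dashed line. The bins called in all 4 libraries range from 35.6% to 40.4%, the bin called in both control libraries alone is at 36.7%, and the 4 bins beyond the right edge are at 41.4% to 44.3%.

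The sequence of the domain was poor in GC. Over its 19 bins called in all 4 libraries, GC content ranged from 35.6% to 40.4% with a median of 37.9%, against a median of 39.9% over 13814 autosomal bins and of 41.1% over the 881 autosomal bins called in all 4 libraries. Of those 881 bins, 25.4% had a lower GC content than the median of the domain. The bin that separated the conditions had 36.7% GC and 7.2 CG dinucleotides per kb, within the range of the 19 bins. The bin before it, chr3:200001-400000, was called in no library and had 36.8% GC. The bins on either side of the control left edge thus had nearly the same GC content, whereas the first bin past the right edge had 41.4%. Of the 19 bins, 6 held no protein-coding gene, which was the case for 46.0% of the 881 bins and 28.6% of all autosomal bins.

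The remaining 6 genes are described by their distance to the nearest domain on the same chromosome, which was the same in all 4 libraries for CNTN5, NRCAM, CNTN2 and NFASC. CNTN5 (chr11:99020949-100358885), which encodes a contactin of the auditory pathway and the longest of the 9 genes at 1338 kb, lay 14.2 Mb from a domain. NRCAM (chr7:108147623-108456717), a gene of nodes of Ranvier and growth cones, lay 35.5 Mb from one. CNTN2 (chr1:205042937-205078289), whose product joins axon and glia beside the paranode, and NFASC (chr1:204828651-205022822), whose isoforms assemble the node and the paranodal junction, are 20.1 kb apart. They lay 41.5 Mb and 41.6 Mb from the same domain near the long-arm end of chromosome 1. That domain was called in all 4 libraries with a low score. From the lowest score it ranked 4 of 78 (control ab176916), 1 of 76 (control ab8898), 8 of 79 (RAB5A ab176916) and 4 of 76 (RAB5A ab8898).

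Distances of the last 2 genes differed between libraries because a far domain was called in some of them. CNTN3 (chr3:74262568-74614659), a contactin gene expressed in brain, lay 69.9 Mb from the nearest domain in both control libraries and in the RAB5A ab8898 library, and 47.1 Mb in the RAB5A ab176916 library. There, a domain of 1.4 Mb at chr3:25800001-27200000 was called that no other list held and that ranked 2 of 79 from the lowest score. CNTN1 (chr12:40692439-41072415), which encodes the axonal partner of the paranodal junction, lay 72.9 Mb from the nearest domain in 3 libraries and 77.3 Mb in the RAB5A ab8898 library. That list lacked the domain at chr12:114000001-116000000, which in the RAB5A ab176916 list had the lowest score of 79. In neither case did both RAB5A libraries differ from both controls. CHL1 was the only gene of the 9 whose overlap with a domain differed between libraries. With 200 kb added on each side of the genes it overlapped the domain in all 4 libraries, and this difference in overlap was lost. Of the genes outside domains in all libraries, CNTN5 was the nearest to one.

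**Figure D4:**
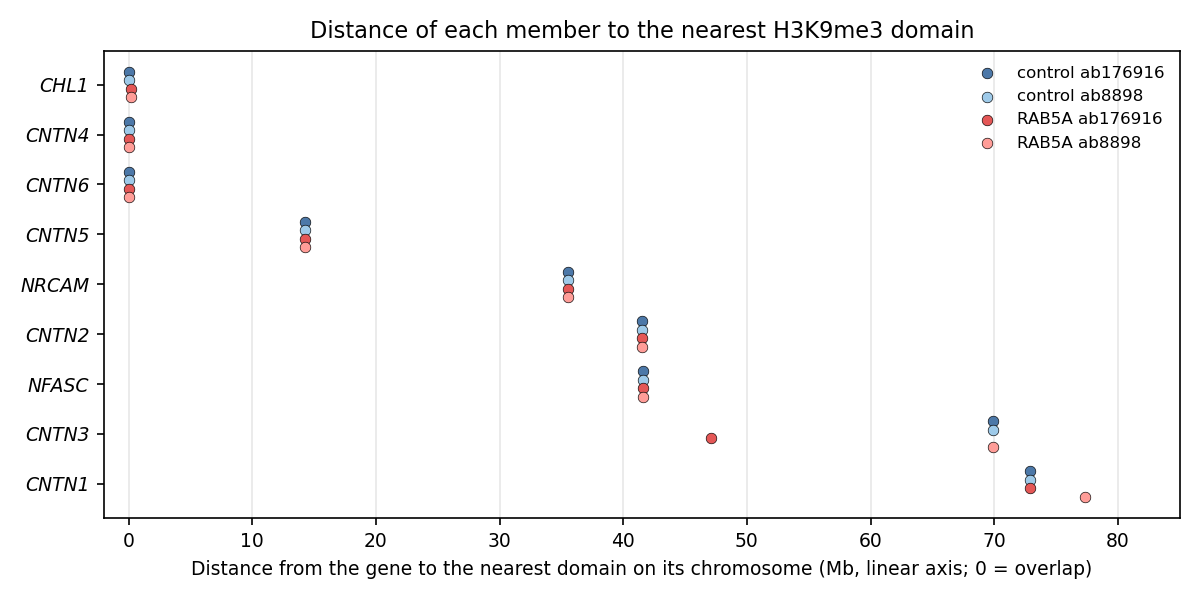
Distance in Mb from each of the 9 genes to the nearest domain on its chromosome, with 1 point per library and 0 for overlap. The 3 genes of the short-arm end of chromosome 3 sit at or near 0, CNTN5 at 14.2 Mb and the other 5 at 35.5 Mb or more, and CNTN3 and CNTN1 have 1 deviating library each.

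The median distance of the 9 genes was 35.5 Mb in each library, against 13.4 to 17.5 Mb over the autosomal protein-coding genes with a domain on their chromosome. The members were long genes, with a median of 311.6 kb against 27.9 kb over all autosomal protein-coding genes. CNTN2, at 35.4 kb, was the exception. Their GC content had a median of 37.3% against 45.4%. CHL1, CNTN6 and CNTN4 had 37.0%, 36.5% and 38.0% GC, and CNTN1, CNTN5 and CNTN3, outside domains, had 35.2%, 35.0% and 37.3%. The starts of CHL1, CNTN6 and CNTN4 were 0.197, 1.09 and 2.10 Mb from the chromosome end, and the other 6 genes lay 34.7 Mb or more from the nearest end. The former were chosen by the position of this domain, and no relation of these features to the domains was tested.

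Related genes were examined as 4 lists of 51 genes in all, 3 of genes that work with contactins and L1-family proteins and 1 of other neural adhesion genes. Of the 32 genes in the former 3 lists, 1 (3.125%) overlapped a domain in all 4 libraries, beside 4.32% of all autosomal protein-coding genes. Over all 51 genes the count was 6 (11.8%), of which 5 came from the list of other adhesion genes, and 45 overlapped none in any library. The list genes were long, with a median of 256.8 kb. Among 6 genes of contactin-associated proteins, which pair with contactins in the axonal membrane, CNTNAP5 overlapped a domain. None of the 17 ligand and receptor genes did, among them PTPRG, PTPRZ1, APP, NOTCH1, NRP1 and TNR, and none of the 9 genes of linkers to the cytoskeleton, among them ANK1, ANK2, ANK3 and EZR. Chromosome 4, which carries ANK2, held no domain in any list. Chromosome 6, which carries EZR, held none in the control ab8898 list. Among 19 other neural immunoglobulin adhesion genes, 5 did, namely NCAM2, OPCML, NTM, IGLON5 and CADM1.

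CNTNAP5 (chr2:124025287-124921219) was covered at 100% in the control ab176916 library, 80.5% in the control ab8898 library, 100% in the RAB5A ab176916 library and 80.5% in the RAB5A ab8898 library. The antibodies differed here and the conditions did not. OPCML and NTM, neighbouring genes of the IgLON family of neuronal adhesion proteins on chromosome 11, were covered at 100% and 34.9% in all 4 libraries. IGLON5, of the same family, was covered at 100% in all 4, as were NCAM2, a neural cell adhesion gene, and CADM1, whose product joins both synapses and epithelial cells. The summed length of list genes in domains was 3250 kb with ab176916 and 3075 kb with ab8898 in control cells, and 3250 kb and 3075 kb in RAB5A cells. The mean was 3163 ± 124 kb in either condition (SD, n = 2 each), with a difference of 0 kb (exact two-sided permutation test over libraries, p = 1, where the smallest possible p is 0.333). This SD came wholly from the difference of CNTNAP5 between antibodies. It does not measure the spread between repeats with the same antibody, and neither does the test. No list gene had a lower or a higher share in both RAB5A than in both control libraries.

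**Figure D5:**
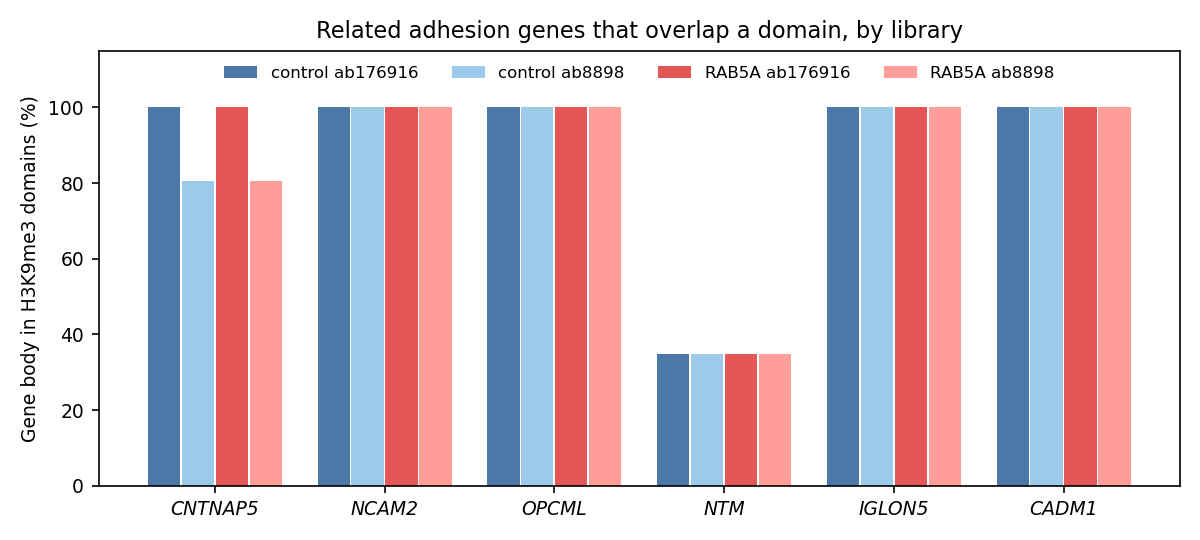
Percentage of the gene body inside H3K9me3 domains (y axis, linear) for the 6 of 51 related genes that overlap a domain, with 1 bar per library. CNTNAP5 stands at 100% with ab176916 and 80.5% with ab8898 in both conditions, NTM at 34.9%, and the other 4 genes at 100% in all 4 libraries.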

How the data were processed

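H3K9me3 ChIP-seq domains of MCF10.DCIS.com cells were analysed in 4 libraries, 2 per condition, and the 2 input libraries were not analysed here. Per the study's methods and the submitters' processing notes, reads were trimmed (Trimmomatic 0.39), mapped to hg38 (BWA 0.7.17-r1188), marked for duplicates (Picard 2.22) and filtered (SAMtools 1.9). The authors called domains per library with EDD 1.1.19 (bins of 200 kb, gap penalty 25, fraction of informative bins 0.98). The deposited lists give positions and a score without unit. Depth per library is not given, so no counting error was computed, and signal below the calling threshold is not visible.

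Gene spans of GENCODE 44 were intersected with the domains in Python 3.11.15 (SciPy 1.17.1, NumPy 2.4.6). Of 4 lists, 0 boundaries were off the 200 kb grid and 0 domains passed a chromosome end of hg38. The interval code was tested on 200 simulated sets. Genes named were the members, list genes in domains, protein-coding genes overlapping or starting within 1 Mb of the chromosome 3 domain, and the 5 genes of most similar shares for each member in a domain, except 1 item that is not reported here. Members and lists were chosen with earlier results of these data known. Replicate numbers stand for antibodies per the labels and so pair the libraries. With 2 against 2 libraries the exact permutation p cannot go below 0.333.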

Additional observations from a re-analysis of the deposited data

How the results depend on the processing

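For 7 results, 50 values were computed with another setting, of which 46 stayed at or near the reported value and 4 moved. The former include counts of genes that changed by 1 under another overlap rule. The alternatives were a score filter at the lower quartile of each list, merging of domains closer than 400 kb, a minimum length of 1 Mb, the canonical transcript in place of the gene span, other overlap rules, each replicate left out and the pairing by antibody. The score filter, the merging, the minimum length, the replicates left out and the pairing changed neither the difference in CHL1 (-4.43 percentage points) nor that in the left edge (0.2 Mb), and the canonical transcript did not change the former. They could not have done so. The domain was 3.8 to 4 Mb long, ranked 44 to 48 from the lowest score and had no other domain within 400 kb. Its edges were the same with both antibodies, and the canonical transcript of CHL1 has the span of the gene. The results for CHL1, the summed members, the left edge and the domain length all reflect the same shift of 1 bin. The 4 that moved came from changing the domains by 1 bin, an alternative chosen after the data were seen. With every domain extended by 1 bin on each side, the CHL1 difference was -94.0 percentage points (98.5% in control and 4.43% in RAB5A) and that of the summed members -200 kb in place of -9.42 kb. With every domain shortened by 1 bin, both differences were 0. The size of the CHL1 difference thus rests on where the gene ends relative to the bins. With the replicate block, taken within antibodies, the paired differences were -4.43 percentage points for CHL1 and 0 kb for the list genes (exact sign-flip test, p = 1, smallest possible 0.5), and no call changed. Leaving out either replicate gave -4.43 points in both cases. With 200 kb added on each side, 3 members overlapped a domain in all 4 libraries in place of 2. The added one was CHL1, so its difference in overlap between conditions was lost. With at least 50% of the gene body required in domains, 5 list genes in place of 6 were counted in all 4 libraries. A count by transcription start was made for the members but not for the list genes. Of these 6, NCAM2, OPCML, IGLON5 and CADM1 started in a domain in all 4 libraries, whereas CNTNAP5 and NTM did not. The depth of each library is not in the lists, and a change within a domain would not show.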

Other observations

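L1CAM, the founding gene of the L1 family, lies on chromosome X and was left out of the 9 autosomal genes. Its gene body was inside a domain at 100% in each of the 4 libraries, so it did not differ between conditions. The shares over all genes given above are autosomal and do not cover chromosome X.

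Several related genes outside domains lay close to one. APLP1, which encodes a relative of the amyloid precursor protein, lay 0.320 Mb from a domain in all 4 libraries, and NCAN, which encodes the matrix proteoglycan neurocan, 0.348 Mb. DSCAML1 lay 0.828 Mb and MAG 0.886 Mb away in all 4 libraries. For CNTNAP4, NOTCH1 and APP the distance differed between libraries, as it did for other list genes further from domains. CNTNAP4 lay 1.04 Mb away in the control ab8898 library and 0.839 Mb in the other 3. NOTCH1 lay 1.09 Mb away in the RAB5A ab176916 library and 0.694 Mb in the other 3. APP lay 2.48 Mb away in the control ab176916 library, 1.28 Mb in the control ab8898 and RAB5A ab176916 libraries and 0.681 Mb in the RAB5A ab8898 library. Within each antibody APP was thus nearer to a domain in RAB5A than in control. The same held for SPTBN1, NEGR1 and NOTCH2, which lay further from domains. No list gene lay further from a domain in RAB5A with both antibodies. These genes were picked for their distance after the values were seen, and none was tested.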
